A study of Mus musculus with 3 samples.

Results

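The transcripts of 7 tubulin isotypes and 3 stathmins were followed across the cell classes of the prefrontal cortex of newborn mice. The 10 genes are 2 alpha-tubulins (Tuba1a and Tuba1b), 5 beta-tubulins (Tubb2a, Tubb2b, Tubb3, Tubb4a and Tubb5) and 3 stathmins (Stmn1, Stmn2 and Stmn4). They were chosen by name, all 10 were found among the 20368 genes of the table, and all 10 passed the filter on low values in each comparison. The table holds 14192 single cells from 3 libraries made on the 10x Genomics Chromium platform, with 4775, 5134 and 4283 cells. All 3 form 1 group: mice of both sexes that inhaled the anaesthetic sevoflurane at about 3% on postnatal day 6 and were killed on that day. Since that group has no unexposed counterpart here, nothing below measures an effect of the drug, and every comparison is between cell classes of exposed mice. Nothing in the labels ties a library to its own animal or litter, so every error and p-value below rests on the spread between 3 libraries, which may be technical. The labels describe flash-frozen tissue and a Trizol step as well as the single-cell kit, and how whole cells were obtained is not given.

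Microtubules are hollow polymers of alpha- and beta-tubulin pairs, and mammals encode several isotypes of each. Growing neurons need large amounts of tubulin for axon outgrowth and migration, and Tuba1a, Tubb2b and Tubb3 are genes in which mutations cause cortical malformations in people. Tubb3 is the isotype long used as a marker of neurons, Tubb4a is known from myelinating oligodendrocytes and neurons, and Tubb5 and Tuba1b are made in many dividing and non-dividing cells. Stathmins bind free tubulin and promote the loss of subunits from microtubule ends. Stmn1 is cytosolic and known from proliferating cells and from neuronal precursors, whereas Stmn2 and Stmn4 are membrane-anchored family members of neurons.

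Tubulins end in an acidic tail that varies between isotypes and whose glutamates are modified after translation. The last 60 coding bases, stop codon included, are shown for the 5 beta-tubulins, 5′ to 3′, with in-frame glutamate codons (GAA or GAG) in capitals. They were read from GENCODE transcript sequences, on the coding strand of each gene, with coding bases located by the GENCODE annotation of GRCm38 (mm10).
Tubb2a: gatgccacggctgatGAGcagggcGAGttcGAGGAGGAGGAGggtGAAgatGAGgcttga
Tubb2b: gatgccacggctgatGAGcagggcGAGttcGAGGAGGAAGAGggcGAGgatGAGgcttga
Tubb3: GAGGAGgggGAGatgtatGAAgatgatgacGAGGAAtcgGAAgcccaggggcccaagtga
Tubb4a: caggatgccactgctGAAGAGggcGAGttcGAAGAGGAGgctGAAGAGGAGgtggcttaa
Tubb5: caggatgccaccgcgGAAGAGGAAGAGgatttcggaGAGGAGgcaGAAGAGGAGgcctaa
These stretches of 60 bases held 7 glutamate codons in Tubb3, 8 in Tubb2a and Tubb2b, and 9 in Tubb4a and Tubb5. Their length is fixed and that of Tubb3 opens with glutamate codons, so the counts are not counts over whole tails. Tubb2a and Tubb2b differed at 3 of the 60 bases. Over the whole coding sequence Tuba1a and Tuba1b were 98.3% identical and Tubb2a and Tubb2b 96.5%, against 83.5% for Tubb4a and Tubb5. Of the 50-base windows of Tuba1a's coding sequence 58.2% also occur in Tuba1b, and of those of Tubb2a 55.2% also occur in Tubb2b, while Tubb3 shares none with another beta-tubulin member. No 50-base window of a 3′ untranslated region was shared between any pair of members within the alpha-tubulins, the beta-tubulins or the stathmins. How the authors' counting treated reads that match both genes is not stated, so the split within each of these pairs carries that uncertainty.

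For the stathmins the first 90 coding bases are shown, because the start of the protein separates the cytosolic from the membrane-anchored members. In-frame cysteine codons (TGC or TGT), which in Stmn2 and Stmn4 encode the lipid-modified anchor, are in capitals.
Stmn1: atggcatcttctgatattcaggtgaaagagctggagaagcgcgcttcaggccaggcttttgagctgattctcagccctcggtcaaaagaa
Stmn2: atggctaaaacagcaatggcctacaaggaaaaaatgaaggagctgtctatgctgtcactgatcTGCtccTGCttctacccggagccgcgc
Stmn4: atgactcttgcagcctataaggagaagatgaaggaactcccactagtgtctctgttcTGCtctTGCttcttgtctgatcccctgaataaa
Stmn2 and Stmn4 each had 2 such codons in this stretch and Stmn1 had 0. Tuba1a (chromosome 15, 98949837 to 98953703, minus strand) and Tuba1b (98931425 to 98934565, minus strand) are neighbours 15271 bases apart. Tubb2a (chromosome 13, 34074274 to 34078007, minus strand) and Tubb2b (34126748 to 34130466, minus strand) are neighbours 48740 bases apart. The others lie apart: Tubb3 on chromosome 8, Tubb4a and Tubb5 on chromosome 17, Stmn1 on 4, Stmn2 on 3 and Stmn4 on 14. The predicted gene Gm49450 overlaps Tuba1a and Tuba1b on their strand and Gm20388 overlaps Tubb3 on its strand, so reads there could be counted to either gene.

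Cell classes were defined by pairs of marker genes that both had a value above 0, with cells that held the dividing pair (Top2a and Cenpf) taken out first. This gave 3384 astrocytes (Aqp4 and Gja1), 2485 oligodendrocyte precursors (Pdgfra and Lhfpl3), 1585 dividing cells, 1384 microglia (P2ry12 and Csf1r), 820 endothelial cells (Cldn5 and Flt1), 72 Cajal-Retzius cells (Reln and Ndnf) and 27 oligodendrocytes (Mag and Mobp). Neuroblasts of the inhibitory lineage (Dlx1 and Sp9) were split by Insm1, a transcription factor of newborn neurons, into 665 Insm1-positive and 744 Insm1-negative cells. A further 421 cells fell into several classes and were left out, and 2605 had none of the pairs. Each class had the highest summed level of its own list of 5 or 6 check markers, which the pairs did not use. Levels here and below are CPM, in which each cell's depth-corrected counts, as recovered from the authors' values, are scaled to a sum of 1000000. In the class with the Reln and Ndnf pair a list of 4 excitatory neuron markers summed to 574 to 652 CPM by library. It summed to at most 11.4 CPM in any library of the other non-dividing classes. Of the 4 genes 2 were at 0 in the Reln and Ndnf class and Neurod6 was at 1.78 CPM. Nearly all of that sum thus came from the remaining gene. The endothelial class held mural markers (1641 to 2652 CPM). Erythroid transcripts (2 hemoglobin genes and Alas2) were present in every class, from 159 to 235 CPM in oligodendrocytes to 13321 to 14686 CPM in endothelial cells; their part in the results was not tested.

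CPM were averaged over the cells of a class in each library. Summed over their cells, libraries 1, 2 and 3 held 27887930, 29581504 and 24612481 corrected counts, and 90 barcode sequences occurred in more than 1 library (180 cells); whether these were the same cells was not tested. Levels are not divided by transcript length, so levels are compared between classes for 1 gene and not between genes. Median detected genes per cell ranged from 1651.5 in Insm1-negative neuroblasts and 1837 in microglia to 2755 in astrocytes and 3334.5 in Cajal-Retzius cells, so a share of cells above 0 has a different depth behind it in each class. In Insm1-negative neuroblasts the 7 tubulins together made up 3.30% of all corrected counts, against 1.33% in oligodendrocytes, 1.15% in Cajal-Retzius cells, 0.744% in precursors, 0.415% in astrocytes and 0.242% in endothelial cells. The 3 stathmins made up 1.02% in Insm1-negative neuroblasts and 0.0265% in astrocytes. Neuroblasts therefore had the highest summed level of both groups, by a wide margin over the spread between libraries.

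**Figure D1:**
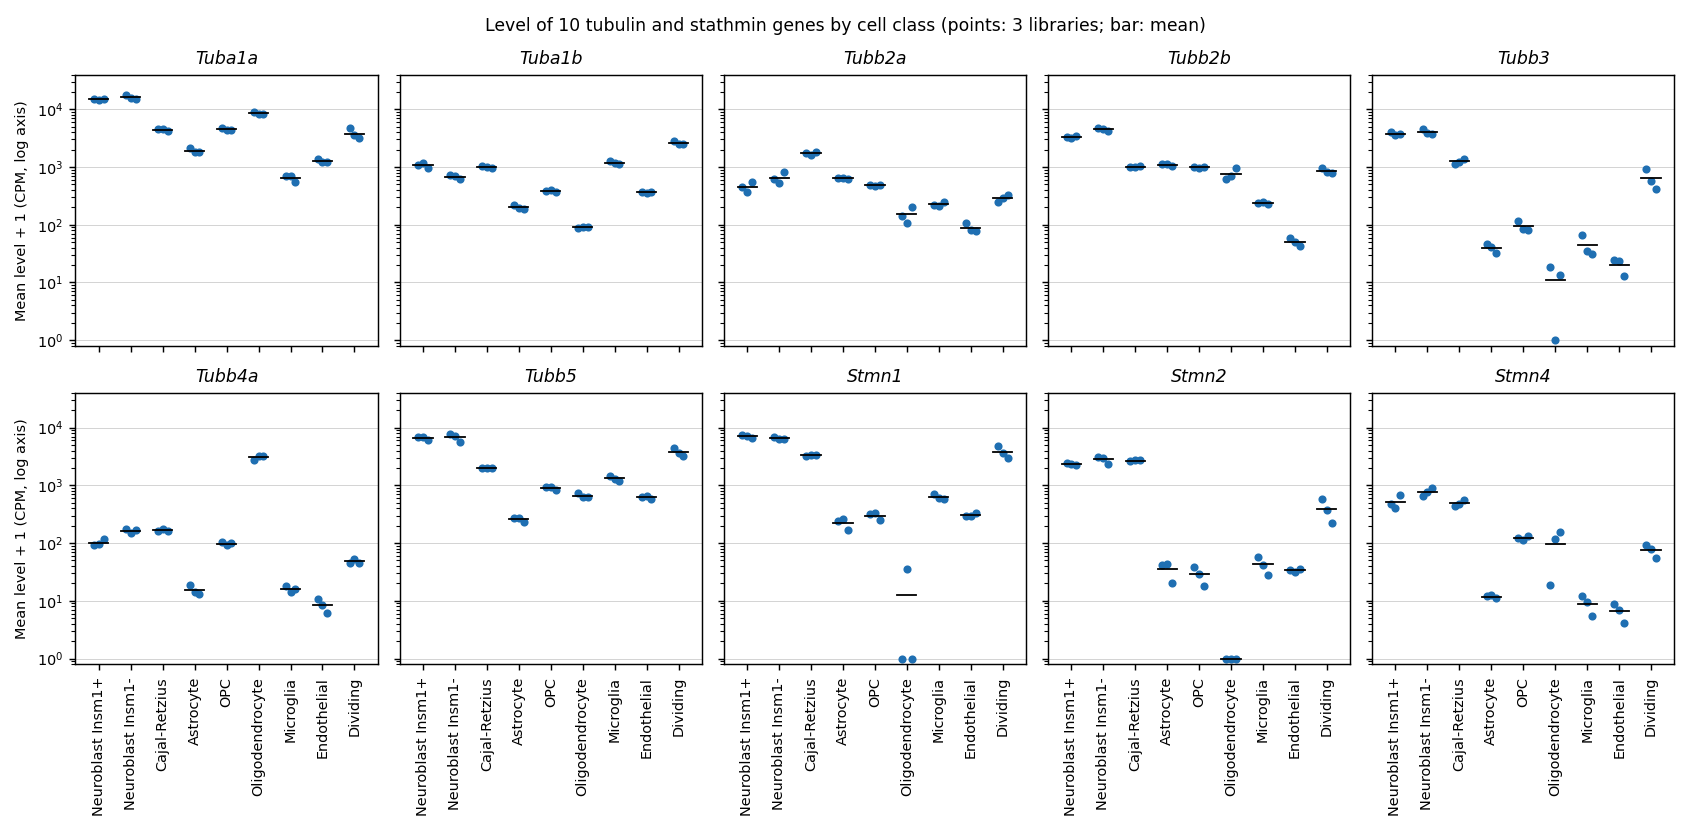
Mean level of each gene by cell class on a log axis (CPM plus 1); each point is 1 of 3 libraries and each bar their mean. Tubb3 and Stmn2 stand near 4039 and 2821 CPM in Insm1-negative neuroblasts and at or below 116 CPM in each library of the glial, microglial and endothelial classes, whereas Tubb4a reaches 3093 CPM in oligodendrocytes.

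Tuba1a, the alpha-tubulin of growing neurons, was above 0 in 99.3% or more of cells of each non-dividing class except microglia (85.7% ± 3.08), and its level still ranged 24.9-fold between classes. Its level was 17525, 15981 and 15150.4 CPM in libraries 1, 2 and 3 of the Insm1-negative neuroblasts. Oligodendrocytes came next after both neuroblast classes, at 9089.6, 8378 and 8185 CPM, and microglia were lowest, at 701, 703 and 547 CPM. The libraries of these classes did not overlap. Oligodendrocyte precursors (4509.6 ± 155 CPM, SD, n = 3 here and for all levels below) and Cajal-Retzius cells (4415 ± 153 CPM) overlapped each other.

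Tuba1b, its near-identical neighbour, followed another order. It was highest in dividing cells, at 2779, 2513 and 2512 CPM, and then in microglia, at 1265, 1164 and 1119 CPM. Insm1-positive neuroblasts (1069 ± 99.7 CPM) overlapped microglia and Cajal-Retzius cells (992 ± 43.3 CPM). Oligodendrocytes, which were rich in Tuba1a, had the least Tuba1b, at 88.6, 90.4 and 92.1 CPM. Of the counts of both alpha-tubulins Tuba1b gave 64.5% ± 2.39 in microglia, 22.6% ± 0.794 in endothelial cells, 9.43% ± 0.0723 in astrocytes, 4.05% ± 0.166 in Insm1-negative neuroblasts and 1.04% ± 0.0679 in oligodendrocytes. The share of Tuba1b was thus highest in microglia and lowest in oligodendrocytes among these classes, in all 3 libraries.

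Tubb2a and Tubb2b, the neighbouring beta-tubulin genes, also separated by class. Tubb2b was highest in Insm1-negative neuroblasts at 4811, 4540.1 and 4191 CPM and stood at 1130.5, 1115 and 1039 CPM in astrocytes. Endothelial cells had the least, 58.3, 49.8 and 41.7 CPM, with 15.8% ± 0.329 of cells above 0. Tubb2a instead peaked in Cajal-Retzius cells, at 1737, 1624 and 1788 CPM, where every cell had it. Insm1-negative neuroblasts (654 ± 145 CPM) and astrocytes (634 ± 18.7 CPM) overlapped in Tubb2a. Of the summed counts of the 5 beta-tubulins Tubb2a gave 28.0% ± 0.789 in Cajal-Retzius cells and 4.12% ± 1.30 in Insm1-negative neuroblasts, while Tubb2b gave 16.4% ± 0.228 and 27.9% ± 1.0.

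Tubb3, the neuronal marker isotype, was present in 99.6% of Insm1-negative neuroblasts, 99.3% of Insm1-positive ones and 98.9% of Cajal-Retzius cells. Its level was 4593, 3837 and 3685 CPM in the Insm1-negative and 4022, 3643 and 3716 CPM in the Insm1-positive class, which overlapped. Cajal-Retzius cells had less, 1129.9, 1246 and 1374 CPM. Oligodendrocyte precursors came next at 116, 84.3 and 80.6 CPM, with 31.1% ± 3.15 of cells above 0. Astrocytes (11.5% ± 2.78 of cells), microglia (8.29% ± 2.56) and endothelial cells (4.69% ± 1.82) held Tubb3 in fewer cells, although the median of detected genes was higher in astrocytes and endothelial cells than in precursors.

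Tubb4a, the isotype known from myelin-forming cells, was highest in oligodendrocytes, at 2797, 3234 and 3248 CPM. All 27 oligodendrocytes had it, with a median of 23.0 corrected counts per cell. Cajal-Retzius cells (167 ± 9.31 CPM) and Insm1-negative neuroblasts (163 ± 11.0 CPM) followed and overlapped. Precursors stood at 103, 90.3 and 98.8 CPM and astrocytes at 18.0, 13 and 12.3 CPM. The step from precursor to oligodendrocyte was 31.8-fold as a ratio of class means.

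Tubb5, a widely expressed isotype, was above 0 in 92.8% or more of the cells of every class except astrocytes, where the share was 68.0% ± 2.96. Both neuroblast classes (7607, 7153 and 5583 CPM when Insm1-negative) and the dividing cells (4508, 3625 and 3177 CPM) were highest. Library 3 was the lowest in both. Microglia stood at 1317 ± 113 CPM, precursors at 896 ± 58.6 CPM and astrocytes at 258 ± 24.5 CPM, with no overlap between these.

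Stmn1, the cytosolic stathmin, was highest in neuroblasts, at 7402, 7273 and 6494 CPM when Insm1-positive and 6997, 6389 and 6469.9 CPM when Insm1-negative, which overlapped. Dividing cells had 4772, 3580.5 and 2990.1 CPM and Cajal-Retzius cells 3272, 3393 and 3365 CPM. In oligodendrocytes Stmn1 was above 0 in 1 of 27 cells, and in libraries 1 and 3 it was at 0. Precursors of the same lineage had it in 59.9% ± 3.42 of cells.

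Stmn2, a growth-cone protein, stood at 3109, 2989.6 and 2365 CPM in Insm1-negative neuroblasts and 2597, 2774 and 2704 CPM in Cajal-Retzius cells, which overlapped. Astrocytes, precursors, microglia and endothelial cells were at similar low levels, from 27.9 CPM in precursors to 42.0 CPM in microglia, and their libraries overlapped. Against 98.3% ± 2.15 of Insm1-negative neuroblasts, the shares of cells with Stmn2 there were 11.2% in astrocytes, 10.3% in precursors, 10.6% in microglia and 8.47% in endothelial cells. The median of corrected counts per cell was 4999 in those neuroblasts, 6248 in astrocytes, 5204 in precursors and 5088 in microglia. Shares at that level, which microglia had as well, are not read as expression here, and their source was not tested. No oligodendrocyte of 27 had Stmn2, which allows a share of up to 11.1% by counting error alone.

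Stmn4, another neuronal stathmin, had a further pattern: it was high in neuroblasts (656, 769 and 897 CPM when Insm1-negative) and also present in precursors. Precursors had 121, 112 and 134 CPM, with 42.4% ± 2.14 of cells above 0, against 4.17% ± 0.684 of astrocytes and 2.99% ± 1.0 of microglia. Oligodendrocytes varied widely, at 18.2, 116 and 156 CPM, with 7 of 27 cells above 0. Precursors and oligodendrocytes overlapped. Of the counts of all 3 stathmins Stmn4 gave 27.2% ± 5.04 in precursors and 7.62% ± 1.55 in Insm1-negative neuroblasts, while Stmn2 gave 6.24% ± 1.93 and 27.5% ± 2.81.

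**Figure D2:**
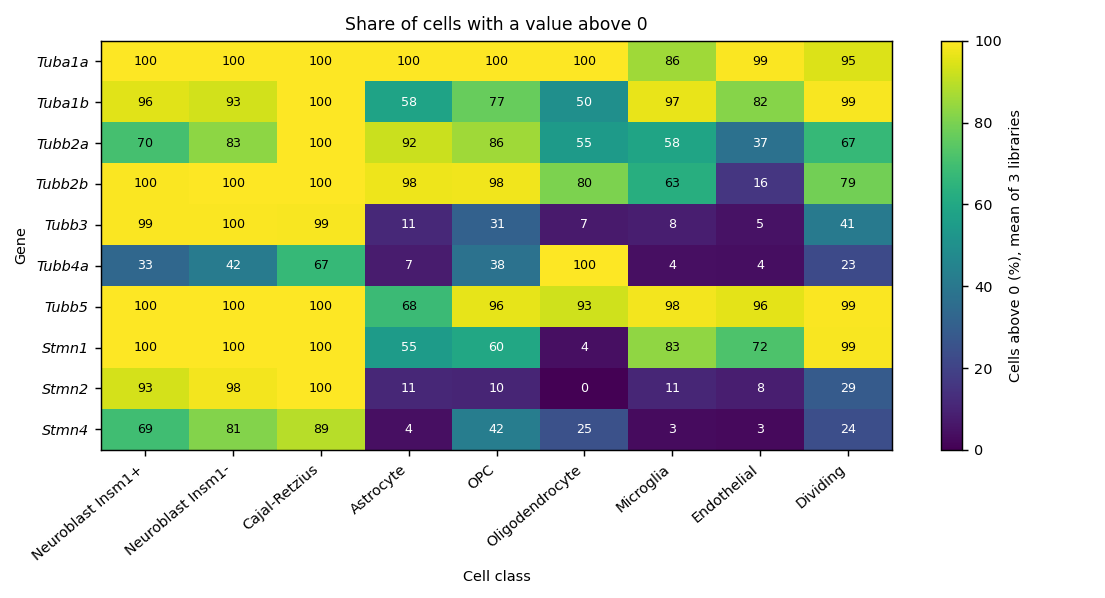
Share of cells with a value above 0 for each gene (rows) and class (columns), as the mean of 3 libraries in percent. Precursors hold Tubb3, Tubb4a and Stmn4 in 31.1%, 37.5% and 42.4% of cells but Stmn2 in 10.3%, against 10.6% of microglia.

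Thinned to 4000 corrected counts per cell, the share of precursors with Tubb3 was 25%, against 8.55% of astrocytes, 7.46% of microglia and 2.97% of endothelial cells. The order of these 4 classes was as before. For Stmn4 the thinned shares were 34.8% of precursors and 2.85% of astrocytes, and for Tubb4a 30.1% and 5.29%. At equal corrected counts per cell the share of precursors with Tubb3 thus exceeded those of astrocytes, microglia and endothelial cells. The shares with Tubb4a and Stmn4 exceeded those of astrocytes. The share with Stmn2 did not exceed the others, at 7.61% of precursors against 8.46% of astrocytes and 8.29% of microglia. Depth before the authors' correction is unknown, so thinning cannot equalise it and decides nothing about its part in these shares.

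Neuroblasts held most of the 10 genes in the same cell: a mean of 8.97 members was above 0 in an Insm1-negative cell and 8.61 in an Insm1-positive one. Cajal-Retzius cells held 9.55, precursors 6.38, microglia 5.11, astrocytes 5.04 and endothelial cells 4.22. Tubb3 and Stmn2 occurred together in 98.3% ± 2.15 of Insm1-negative neuroblasts and in 3.80% ± 0.922 of precursors. Within the Insm1-negative class single cells still varied: the 10th and 90th percentiles of corrected counts were 46.0 and 115 for Tuba1a, 9.0 and 33.0 for Tubb3, and 6.00 and 22.0 for Stmn2.

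Cells with Tubb3 outside the neuronal classes were compared with their neighbours of the same class that had none. In astrocytes the 388 cells with Tubb3 more often held other neuronal transcripts: Stmn2 was above 0 in 25.9 ± 6.71 percent of them and in 9.28 ± 2.54 percent of the rest. Stmn4 was above 0 in 13.4 ± 0.558 and 2.98 ± 0.604 percent, and the summed level of 6 neuroblast markers was 219 ± 31.9 and 60.9 ± 24.3 CPM. The same direction held in microglia, where Stmn2 was above 0 in 22.9 ± 10.0 percent of 110 cells with Tubb3 and 9.54 ± 4.08 percent of the rest, and in 41 endothelial cells. In precursors the 771 cells with Tubb3 differed less from the rest in the shares of cells with a count: Stmn2 was above 0 in 12.1 ± 2.08 and 9.54 ± 3.62 percent, Stmn4 in 43.3 ± 2.93 and 42.1 ± 3.00 percent, and Dcx, a microtubule protein of migrating neurons, in 56.4 ± 3.55 and 53.4 ± 1.62 percent. Their neuroblast marker sum was 78.3 ± 30.2 and 50.8 ± 7.87 CPM. These are descriptions of cells split by 1 gene, and the differences between classes were not tested. Scrublet, a doublet caller, marked 2.66 ± 2.51 percent of astrocytes with Tubb3 and 0.552 ± 0.134 percent of the rest. In precursors it marked 0.753 ± 0.299 and 0.401 ± 0.540 percent. In microglia the shares were 3.60 ± 6.24 and 1.07 ± 0.786 percent, and in endothelial cells 10.4 ± 10.0 and 2.16 ± 2.28 percent. The part of doublets in the differences above was not tested.

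The make-up of the beta-tubulin pool, taken as the 5 members alone, differed between classes by far more than between libraries. Tubb5 gave 79.8% ± 2.49 of the pool in endothelial cells and 71.6% ± 1.18 in microglia, but 12.3% ± 0.669 in astrocytes and 14.3% ± 2.50 in oligodendrocytes. Tubb2b gave 53.6% ± 0.394 in astrocytes and 12.8% ± 0.731 in microglia, and Tubb2a 31.5% ± 0.647 and 12.3% ± 1.62. Tubb4a gave 66.5% ± 2.44 in oligodendrocytes and at most 3.92%, in precursors, elsewhere among the classes. Tubb3 gave 25% ± 1.18 in Insm1-negative neuroblasts, 26.5% ± 0.775 in Insm1-positive ones and 20.3% ± 1.45 in Cajal-Retzius cells. Since counts are not per length, these shares compare 1 isotype between classes.

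**Figure D3:**
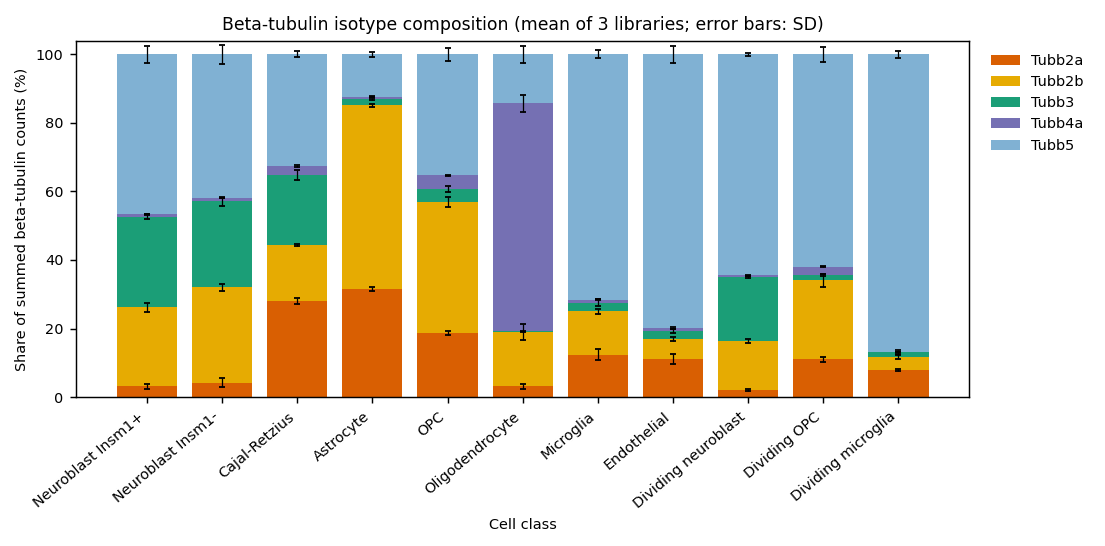
Share of the summed counts of 5 beta-tubulins contributed by each isotype, in percent (stacked bars, mean of 3 libraries; error bars are the SD of the segment below them). Tubb4a fills 66.5% of the bar in oligodendrocytes, Tubb2b 53.6% in astrocytes and Tubb5 71.6% in microglia and 86.8% in dividing microglia.

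Classes were compared with limma on log2(class mean + 10 CPM), with library as a block and Benjamini-Hochberg adjustment over all genes tested; a gene was called at an adjusted p under 0.05. Differences are given on that log2 scale as estimate ± SE, and the added 10 CPM understates the change of genes with low levels. Each gene's SE and p-value use a residual spread between libraries that is shared by all classes of the fit and moderated over genes. They are thus not the spread of the compared pair of classes alone. Since the classes were defined by pairs of other genes, the members' values did not enter the choice of cells, but cell classes differ widely, and the share of all genes called is given for each comparison. The comparisons of neuroblasts, precursors, microglia and endothelial cells with astrocytes share the astrocyte values, so they are not independent of each other.

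Insm1-negative neuroblasts had higher levels than astrocytes of 9 of the 10 members and lower levels of 0, where 62.5% of 10073 genes were called (22.3% higher and 40.3% lower). The difference was 6.37 ± 0.17 (adjusted p = 4.88e-18) for Tubb3, a 103-fold ratio of class means. It was 6.04 ± 0.18 (adjusted p = 2.55e-17) for Stmn2, 5.22 ± 0.19 (adjusted p = 2.79e-16) for Stmn4 and 4.87 ± 0.12 (adjusted p = 8.19e-19) for Stmn1. Among the widespread isotypes Tubb5 differed by 4.66 ± 0.07 (adjusted p = 3.95e-22) and Tuba1a by 3.08 ± 0.07 (adjusted p = 8.19e-19). Tubb2b, Tubb4a and Tuba1b were higher by 2.03 ± 0.07, 2.83 ± 0.13 and 1.71 ± 0.06. For Tubb3, Stmn2 and Tubb4a the astrocyte means (39.1, 34.1 and 14.4 CPM) were below the microglial ones (43.4, 42.0 and 15.1 CPM). Such levels are not read as expression here, so the sizes of those differences rest on low values in astrocytes. Tubb2a was the exception, at 0.02 ± 0.12 (adjusted p = 0.893), with 1 of 3 libraries higher in neuroblasts. The median over the 10 members was 3.87, against -0.19 over all genes tested; when each column of log values was set to a median of 0 (centred values below), Tubb2a was called higher by 0.46 (adjusted p = 0.00161).

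Insm1-positive and Insm1-negative neuroblasts differed in 5 of the 10 members. Tuba1b was higher by 0.66 ± 0.06 (adjusted p = 2.37e-07) and 4 members were lower, where 8.42% of genes were called (6.25% higher and 2.16% lower). Levels of Tuba1b were 1098, 1152 and 959 CPM against 716, 691 and 615 CPM, without overlap. The lower members were Tubb4a (-0.65 ± 0.13), Stmn4 (-0.60 ± 0.19), Tubb2a (-0.52 ± 0.12) and Tubb2b (-0.43 ± 0.07). Of these calls Tubb2b ended without library 2 (adjusted p = 0.0702), and the other 3 ended without library 1 or library 2 (adjusted p from 0.0577 to 0.483); with pseudocount 1 CPM or without the filter Stmn4 was not called (adjusted p = 0.203 and 0.119). Tubb3 (-0.08 ± 0.17), Stmn2 (-0.26 ± 0.18), Tubb5 (-0.02 ± 0.07), Stmn1 (0.09 ± 0.12) and Tuba1a (-0.12 ± 0.07) did not pass, but with dividing cells left in their class Tuba1a was called lower at -0.36 (adjusted p = 0.000332) and Stmn2 at -0.50 (adjusted p = 0.0397). Markers of dividing cells, which were 50.9 CPM summed over 5 genes in the Insm1-negative class (range 40.4 to 71.4), were 217 CPM in the Insm1-positive class (range 184 to 264); erythroid transcripts went the other way, at 4454 to 7326 CPM against 1175 to 2506 CPM, and their part in these differences was not tested.

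Cajal-Retzius cells, early-born neurons of the cortical surface, had less of 6 members and more of 2 than Insm1-negative neuroblasts, where 68.4% of genes were called (26.7% lower and 41.8% higher). The difference was -2.16 ± 0.07 (adjusted p = 5.13e-17) for Tubb2b, -1.87 ± 0.07 (adjusted p = 8.17e-16) for Tuba1a, -1.74 ± 0.07 (adjusted p = 1.69e-15) for Tubb5 and -1.68 ± 0.17 (adjusted p = 1.19e-08) for Tubb3, each lower in 3 of 3 libraries. Stmn1 (-0.98 ± 0.12) and Stmn4 (-0.64 ± 0.19) were lower by less, and Stmn4 was not called without library 2 (adjusted p = 0.0558) or on unscaled counts (adjusted p = 0.363). Tubb2a was higher by 1.40 ± 0.12 (adjusted p = 8.93e-10). Tuba1b was higher by 0.55 ± 0.06 (adjusted p = 4.11e-08), although with centred values it stood at 0.02 (adjusted p = 0.795). Stmn2 (-0.06 ± 0.18) and Tubb4a (0.03 ± 0.13) did not pass; with centred values they were -0.59 (adjusted p = 0.00858) and -0.50 (adjusted p = 0.000749), and on unscaled counts Tubb4a was called higher by 0.44 (adjusted p = 0.00431). The median over all genes was 0.18 here, and Cajal-Retzius cells had more detected genes than these neuroblasts (medians of 3334.5 and 1651.5), whose part in the result was not tested.

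Oligodendrocyte precursors exceeded astrocytes in 7 members and were below them in 1, where 45.6% of genes were called (29.7% higher and 15.8% lower). The differences were 2.66 ± 0.19 (adjusted p = 4.61e-11) for Stmn4, 2.14 ± 0.13 (adjusted p = 3.14e-12) for Tubb4a, 1.76 ± 0.07 (adjusted p = 6.73e-15) for Tubb5, 1.24 ± 0.07 (adjusted p = 3.28e-12) for Tuba1a and 1.07 ± 0.17 (adjusted p = 1.74e-05) for Tubb3. Tuba1b (0.90 ± 0.06) and Stmn1 (0.44 ± 0.12) were also higher, the latter with overlapping libraries. Tubb2a was lower, at -0.39 ± 0.12 (adjusted p = 0.0113), a call that ended without library 1 or 2 (adjusted p = 0.0785 and 0.0823). Tubb2b (-0.16 ± 0.07, adjusted p = 0.0867) did not pass, although it did with centred values (-0.27, adjusted p = 0.00641), on unscaled counts, with only the 2 classes in the fit or without library 3. Stmn2 was below the mean microglial level (42.0 CPM) in both classes and is not read as expression. The median over the members was 0.99 against 0.14 over all genes tested.

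Oligodendrocytes were compared with their precursors in a fit that was added once the class was seen to hold 8, 8 and 11 cells, with at least 5 cells per library in place of 10. Tubb4a was higher by 4.85 ± 0.13 (adjusted p = 7.29e-18) and Tuba1a by 0.92 ± 0.08 (adjusted p = 7.36e-10); 7 members were called lower, where 63.9% of genes were called (14% higher and 49.9% lower). Among the lower members the difference was -4.21 ± 0.32 (adjusted p = 1.59e-10) for Stmn1, -2.48 ± 0.25 (adjusted p = 1.36e-08) for Tubb3, -1.96 ± 0.07 (adjusted p = 5.75e-16) for Tuba1b and -1.65 ± 0.15 (adjusted p = 2.14e-09) for Tubb2a. Stmn2 was among the called, but with 0 counts in every oligodendrocyte library and a level not read as expression in precursors it is given no fold. Tubb5 (-0.43 ± 0.08) and Tubb2b (-0.39 ± 0.12) were called lower by less than the median of all genes (-0.53), and with centred values they turned to 0.18 (adjusted p = 0.0993) and 0.23 (adjusted p = 0.0437). On unscaled counts neither was called (adjusted p = 0.505 and 0.849), and Tubb2b was not called without library 1 or 2 (adjusted p = 0.127 and 0.099). Stmn4 (-0.65 ± 0.38, adjusted p = 0.141) did not pass, with library 1 low and libraries 2 and 3 slightly higher in oligodendrocytes.

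Microglia, the immune cells of brain tissue, had more Tuba1b (2.51 ± 0.06, adjusted p = 5.89e-19), Tubb5 (2.31 ± 0.07, adjusted p = 1.46e-17) and Stmn1 (1.5 ± 0.12, adjusted p = 1.15e-10) than astrocytes. They had less Tubb2b (-2.16 ± 0.07, adjusted p = 4.67e-17), Tuba1a (-1.55 ± 0.07, adjusted p = 1.97e-14) and Tubb2a (-1.45 ± 0.12, adjusted p = 5.04e-10). Over all genes 63.9% were called, 19.3% higher and 44.6% lower. Markers of dividing cells still summed to 226 CPM in this microglial class, the highest among the non-dividing classes. Mki67 was above 0 in 12.9% of microglia and 3.63% of astrocytes, and the part of such cells in these differences was not tested. Tubb3, Tubb4a, Stmn2 and Stmn4, which were low in both classes, did not pass; the first 3 went from 0.07, 0.04 and 0.25 to 0.48, 0.45 and 0.66 and were called higher with centred values, where the median difference over all genes was -0.29 before centring.

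Endothelial cells followed the same split in part. Tubb2b was lower than in astrocytes, at -4.21 ± 0.07 (adjusted p = 4.35e-21) and a 21.9-fold ratio of class means, and so was Tubb2a, at -2.73 ± 0.12 (adjusted p = 5.43e-15). Tuba1a (-0.59 ± 0.07) was lower too. Tubb3 (-0.77 ± 0.17) and Tubb4a (-0.49 ± 0.13) were also called lower, but both classes were at or below the microglial level (43.4 and 15.1 CPM), with Tubb3 in 4.69% of endothelial cells, 11.5% of astrocytes and 8.29% of microglia and Tubb4a in 3.53%, 7.45% and 4.18%, so these calls are not read as expression. Tubb5 (1.24 ± 0.07, adjusted p = 5.37e-13), Tuba1b (0.85 ± 0.06, adjusted p = 2.59e-11) and Stmn1 (0.47 ± 0.12, adjusted p = 0.00119) were higher. The 3 higher and 5 lower calls stood beside 24.7% and 36.3% of all genes (61% in either direction). Tubb3 was not called when both marker genes had to reach 2 corrected counts (adjusted p = 0.124), nor was Stmn1 without library 3 (adjusted p = 0.0628). Stmn4 (-0.43 ± 0.19, adjusted p = 0.0511) did not pass, but it was called lower in 7 alternatives (adjusted p from 0.00312 to 0.0436), also from levels near the microglial one (7.99 CPM).

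**Figure D4:**
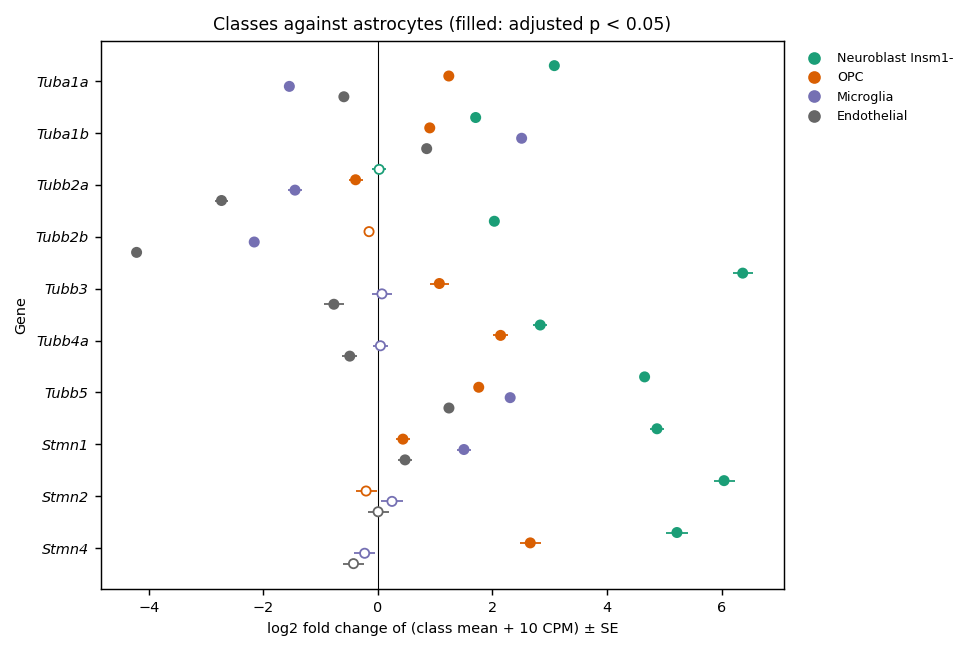
Difference of each gene from astrocytes (x axis, log2 of class mean + 10 CPM, bars are SE) in Insm1-negative neuroblasts, precursors, microglia and endothelial cells; filled points passed an adjusted p of 0.05. Tubb3, Stmn2 and Stmn4 are at 6.37, 6.04 and 5.22 in neuroblasts and 0.07, 0.25 and -0.23 in microglia, while Tubb2a and Tubb2b are lowest in endothelial cells, at -2.73 and -4.21.

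Dividing cells were then split by the lineage pairs and compared with non-dividing cells of their own lineage, in 410 neuroblasts, 302 precursors and 271 microglia. Insm1 was above 0 in 92.7% ± 6.79 of dividing neuroblasts, so they were set against the Insm1-positive class. Tuba1b was higher in dividing cells of all 3 lineages, at 3205, 2987 and 3032 CPM against 1098, 1152 and 959 CPM in neuroblasts, 1787, 1899.6 and 1828 CPM against 380.3, 395 and 371 CPM in precursors and 3107, 3081 and 2999 CPM against 1265, 1164 and 1119 CPM in microglia. The libraries of dividing and non-dividing cells did not overlap. The differences were 1.52 ± 0.08 (adjusted p = 4.75e-16), 2.24 ± 0.08 (adjusted p = 9.35e-21) and 1.37 ± 0.08 (adjusted p = 8.15e-15).

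Stmn1 and Tubb5 were higher in dividing precursors and microglia and differed less in neuroblasts. Stmn1 went from 315, 327 and 252 CPM in precursors to 1287, 1265 and 1261 CPM in dividing ones, and from 703, 612 and 583 CPM to 1799.5, 1734 and 2045 CPM in microglia. The differences were 2.06 ± 0.10 (adjusted p = 2.98e-17) and 1.54 ± 0.10 (adjusted p = 9.8e-14). In neuroblasts, where Stmn1 was already at 7056 ± 491 CPM, the difference was 0.29 ± 0.10 (adjusted p = 0.0484), and it was not called with pseudocount 1 CPM, without the filter, with centred values, with no replicate block or without library 1 or 2 (adjusted p from 0.0585 to 0.828). Tubb5 differed by 1.47 ± 0.08 (adjusted p = 1.6e-16) in precursors, 0.98 ± 0.08 (adjusted p = 6.98e-12) in microglia and 0.11 ± 0.08 (adjusted p = 0.428) in neuroblasts; on unscaled counts the last was called at 0.33 (adjusted p = 0.00301).

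Tuba1a moved the other way from Tuba1b in all 3 lineages. It was lower, at -0.87 ± 0.07 (adjusted p = 9.83e-12) in dividing neuroblasts, -0.37 ± 0.07 (adjusted p = 0.000159) in precursors and -0.59 ± 0.07 (adjusted p = 6.9e-08) in microglia; in precursors it was not called on unscaled counts (adjusted p = 0.178). Of the counts of both alpha-tubulins Tuba1b thereby gave 28.0% ± 0.876 in dividing neuroblasts against 7.16% ± 0.664, 35.2% ± 1.24 in dividing precursors against 7.94% ± 0.375, and 88.0% ± 0.454 in dividing microglia against 64.5% ± 2.39.

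A further 4 members were lower in dividing neuroblasts. The difference was -1.31 ± 0.21 (adjusted p = 1.38e-05) for Stmn4, -1.05 ± 0.25 (adjusted p = 0.00265) for Tubb2b, -0.93 ± 0.15 (adjusted p = 2.64e-05) for Tubb2a and -0.55 ± 0.19 (adjusted p = 0.0449) for Tubb4a. With pseudocount 1 CPM the calls of Stmn4, Tubb2b and Tubb4a ended (adjusted p = 0.0829, 0.342 and 0.439), and leaving out single libraries ended those of Tubb2b (library 1 or 2) and Tubb4a (library 1 or 3). Tubb4a was also not called without the filter, on unscaled counts or with only the 2 classes (adjusted p = 0.0518, 0.221 and 0.0617). Tubb3 stood at 4022, 3643 and 3716 CPM in non-dividing and 2223, 2126 and 1857 CPM in dividing neuroblasts without overlap, yet its difference of -0.87 ± 0.42 (adjusted p = 0.174) did not pass in the fit over 12 classes; it passed with only those 2 classes in the fit (adjusted p = 7.85e-05). For Stmn2 the values were -0.87 ± 0.45 (adjusted p = 0.217) and adjusted p = 0.000559 with only the 2 classes. Precursors had 1 such call, Stmn4 at -0.89 ± 0.21 (adjusted p = 0.00206), which ended without library 2 (adjusted p = 0.0562) or with pseudocount 1 CPM (adjusted p = 0.307). Dividing microglia had less Tubb2b (-0.91 ± 0.25) and Tubb4a (-0.65 ± 0.19), both at low levels. The Tubb2b call ended without library 1 or 2, with pseudocount 1 CPM (adjusted p = 0.474) or without the filter (adjusted p = 0.0597). That of Tubb4a ended without any 1 of the libraries or with pseudocount 1 CPM (adjusted p = 0.0684). It also ended when both marker genes had to reach 2 corrected counts (adjusted p = 0.18). Tubb4a stood at 15.1 CPM in non-dividing and 5.99 CPM in dividing microglia. Such levels were not read as expression in the endothelial comparison, and the Tubb4a call is not read so here.

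Counted together, 2 members were higher and 5 lower in dividing neuroblasts (10.4% and 5.04% of 10154 genes, 15.5% in all), 3 higher and 2 lower in precursors (9.41% and 4.74%, 14.1% in all), and 3 higher and 3 lower in microglia (6.69% and 2.2%, 8.88% in all). Detected genes per cell moved with division, with medians of 2834.5 against 1907 in neuroblasts, 3549.5 against 2604 in precursors and 2405 against 1837 in microglia; their part in these results was not tested.

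**Figure D5:**
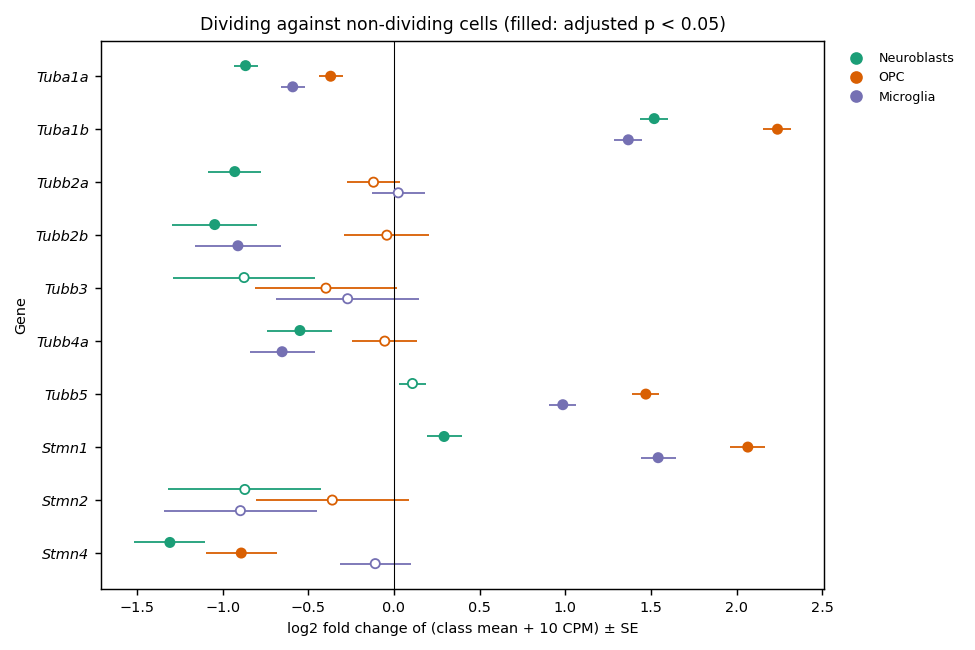
Difference between dividing and non-dividing cells of 3 lineages (x axis, log2 of class mean + 10 CPM, bars are SE); filled points passed an adjusted p of 0.05. Tuba1b is at 1.52, 2.24 and 1.37 in neuroblasts, precursors and microglia, while Stmn1 and Tubb5 are at 0.29 and 0.11 in neuroblasts and 2.06 and 1.47 in precursors.

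The difference between lineages was tested with an interaction contrast added after the values were seen. Among cells counted as non-dividing, Mki67 was above 0 in 13.5% of Insm1-positive neuroblasts, 12.9% of microglia and 8.41% of precursors. The part of such cells in the contrasts was not tested. Relative to precursors, division went with a smaller difference in neuroblasts for Stmn1 (-1.77 ± 0.14, adjusted p = 6.26e-10), Tubb5 (-1.36 ± 0.11, adjusted p = 6.26e-10) and Tuba1b (-0.72 ± 0.12, adjusted p = 0.000619), and with a larger decrease of Tuba1a (-0.50 ± 0.10, adjusted p = 0.00859). These were 4 members of 10 called lower and 0 higher, where 0.325% and 0.138% of genes were (0.463% in either direction). Microglia against precursors gave 2 calls, Tuba1b (-0.87 ± 0.12, adjusted p = 6.84e-05) and Tubb5 (-0.48 ± 0.11, adjusted p = 0.0179), where 1.2% of genes were called (0.847% lower and 0.355% higher). Without library 2 the calls of Tuba1a (adjusted p = 0.197), Tuba1b (0.351 in neuroblasts and 0.0545 in microglia) and, in microglia, Tubb5 (0.569) ended; those of Stmn1 and Tubb5 in neuroblasts held under all 11 alternatives run.

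Other genes of the microtubule system were read from 7 lists. Among the remaining tubulins and Stmn3, 5 of 8 tested genes were higher in dividing neuroblasts and 1 lower, with 5 higher in precursors, 4 in microglia and 0 lower in either, where 10.4%, 9.41% and 6.69% of all genes were higher and 5.04%, 4.74% and 2.2% lower. Tubb4b, a ubiquitous beta-tubulin, was higher by 2.45 ± 0.15, 2.12 ± 0.15 and 2.31 ± 0.15, and Tuba1c, a further alpha-tubulin, by 2.99 ± 0.20, 1.87 ± 0.20 and 1.99 ± 0.20. Ckap5, which speeds growth at microtubule plus ends, was higher by 1.8 ± 0.22, 1.97 ± 0.22 and 1.78 ± 0.22. In its list of plus-end and minus-end proteins 1, 2 and 2 of 10 were higher and 0 lower. Nde1, a dynein regulator of mitosis, was higher by 2.65 ± 0.22, 2.22 ± 0.22 and 1.84 ± 0.22. Of the 23 kinesin and dynein genes in its list, however, 1, 2 and 2 were higher and 4, 0 and 1 lower. Of 14 microtubule-associated proteins tested 0, 0 and 1 were higher and 1, 2 and 1 lower, among them Mapt, the axonal protein tau, at -1.24 ± 0.25 in neuroblasts. The lists of severing enzymes gave 3, 2 and 2 higher and 0 lower of 6, among them Fignl1 (0.96 ± 0.22, 1.86 ± 0.22 and 0.68 ± 0.22).

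Between neuroblasts and astrocytes 7 of 14 microtubule-associated proteins were higher and 4 lower, where 22.3% of all genes were higher and 40.3% lower, which is the background of each list count between these classes. Dcx and Map1b, proteins of migrating and growing neurons, were higher by 5.60 ± 0.28 and 5.55 ± 0.16. Of 23 kinesin and dynein genes 14 were higher and 5 lower, with the motor Kif5c at 2.29 ± 0.15 and the dynein regulator Nde1 among the lower, at -2.57 ± 0.23. Tubulin folding cofactors showed 1 higher and 2 lower of 7, and plus-end and minus-end proteins 4 higher and 2 lower of 10. Among the other tubulins and Stmn3 there were 2 higher and 3 lower of 7: Stmn3, a further neuronal stathmin, was higher by 3.81 ± 0.12, while Tuba4a was lower, at -1.90 ± 0.18. Of 11 enzymes of tubulin modification 4 were higher, among them the acetyltransferase Atat1 (1.8 ± 0.12) and the carboxypeptidase Vash2 (1.84 ± 0.14), and 2 lower. Of 5 severing enzymes 1 was higher, Spast (0.68 ± 0.15), and 0 were lower.

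In Cajal-Retzius cells against neuroblasts Dcx and Dclk1, its relative, were lower, at -5.91 ± 0.28 and -4.80 ± 0.27, with 6 microtubule-associated proteins higher and 5 lower of 14, where 41.8% of all genes were higher and 26.7% lower. Dync1i1, a dynein intermediate chain, was higher by 5.03 ± 0.20, and Tubb4b and Tuba4a by 3.09 ± 0.16 and 3.19 ± 0.18. Modification enzymes divided into 7 higher and 4 lower of 11, with the tubulin ligases Ttll7 at 3.41 ± 0.15 and Ttll5 at 2.64 ± 0.15. Folding cofactors divided into 5 higher and 2 lower of 7, with Arl2 at 2.41 ± 0.13.

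Precursors against astrocytes had 8 of 14 microtubule-associated proteins higher and 2 lower, where 29.7% of all genes were higher and 15.8% lower, with Dcx at 3.27 ± 0.28 and Dclk1 at -1.90 ± 0.27. Stmn3 was higher by 2.89 ± 0.12, in a class where Tubb3, Tubb4a and Stmn4 were also higher. Of 11 modification enzymes 7 were higher and 0 lower, with Ttll7 at 1.25 ± 0.15 and Ttll1 at 1.16 ± 0.12. In oligodendrocytes against precursors Map1b (4.76 ± 0.17), the deacetylase Sirt2 (4.55 ± 0.16), the kinesin Kif21a (4.0 ± 0.17) and the plus-end protein Mapre2 (2.47 ± 0.15) were higher. Stmn3 (-4.01 ± 0.33), Dclk1 (-4.61 ± 0.28) and the folding cofactor Tbca (-2.50 ± 0.25) were lower there, while the cofactor Arl2 was higher (1.88 ± 0.15). Microtubule-associated proteins divided into 6 higher and 5 lower of 15, and kinesin and dynein genes into 10 and 7 of 23. Modification enzymes and plus-end and minus-end proteins each had 3 higher and 5 lower of 10. Folding cofactors had 2 and 2 of 7, and the other tubulins and Stmn3 1 and 2 of 7. Over all genes 14% were higher and 49.9% lower.

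Microglia against astrocytes had 0 of 14 microtubule-associated proteins higher and 9 lower, 0 of 11 modification enzymes higher and 8 lower, and 0 of 7 folding cofactors higher and 5 lower, where 19.3% of all genes were higher and 44.6% lower. Map2, a dendritic protein, was lower, at -2.67 ± 0.13. Tuba1c and Tubb6 were higher by 2.81 ± 0.12 and 1.31 ± 0.19. In endothelial cells Tubb6 was higher by 3.38 ± 0.19 and Map7, which recruits kinesin-1, by 3.74 ± 0.17, with 3 microtubule-associated proteins higher and 8 lower of 14, where 24.7% and 36.3% of all genes were. Between the neuroblast classes 3 of 7 further tubulins were higher when Insm1-positive, with the centrosomal Tubg1 at 0.94 ± 0.21 and Tubb4b at 0.70 ± 0.16, while 1 of 14 microtubule-associated proteins was lower and 0 were higher, where 6.25% of all genes were higher and 2.16% lower.

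Genes with the most similar pattern were ranked by Pearson correlation of log2(class mean + 10 CPM) over 24 points, 8 classes in 3 libraries. The points share libraries and the differences between neuronal and other classes, and oligodendrocytes were not among them. Tubb3 was most like Dpysl5 (r = 0.985), Cct2 (r = 0.976) and Crmp1 (r = 0.974). Stmn2 was most like Islr2 (r = 0.987), Map1b (r = 0.975) and Bcl11a (r = 0.972). Tubb5 was most like Nono (r = 0.963), Gng2 (r = 0.963) and Sf3b2 (r = 0.955), and Tubb4a most like Gng3 (r = 0.987), Nsg1 (r = 0.979) and Stmn3 (r = 0.973).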

How the data were processed

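Single cells of the prefrontal cortex were measured in 3 libraries of 1 group, and no other group was analysed here. The submitters' processing notes name CASAVA 1.8, Cell Ranger and Seurat, without their settings, and the genome build and the depth correction are not given in the sources used here. The authors deposited the natural log of 1 plus a number per gene and cell. Undoing the log gave whole numbers for all 34958786 values above 0 (tolerance 1e-06). They are called corrected counts, because cells sum to 4422 to 8135 of them while detected genes range from 121 to 4213. Depth before correction is unknown, so no count model was used. The members, gene lists and marker pairs were chosen with earlier results of these data known.

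Each cell was scaled to 1000000 (CPM) and averaged per class and library. A class was defined by both genes of its pair being above 0. Cells in several classes were dropped, and Scrublet in scanpy 1.11.5 marked 120, 78 and 89 cells, which were removed only in an alternative. limma 3.58.1 in R 4.3.3 was fitted with trend to log2(mean + 10 CPM), with library as a block, on genes whose class means averaged 10 CPM or more. Tests were two-sided, p-values were Benjamini-Hochberg adjusted over all genes tested, and the threshold was 0.05. Classes needed 10 cells in each library (5 in the fit with oligodendrocytes, added after seeing the data). The fits held 8 classes (10073 genes, 14 residual degrees of freedom), 12 with dividing cells split by lineage (10154 genes, 22) and 9 with oligodendrocytes (10081 genes, 16). The block pairs classes measured in the same library, which follows from the design.

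All 10 members were named. From each list at most 2 genes per comparison were named, those with the largest difference among the called genes of 1 sign in all libraries. The most similar patterns are the 3 highest Pearson correlations, with members and pair genes left out. Alternatives changed the pseudocount, filter, scaling, classes in the fit, block, libraries, pair threshold, doublet calls, minimum of cells and treatment of dividing cells. On simulated data for neuroblasts against astrocytes over 10073 genes, the fit recovered 36% of changes of 0.5 and 80% of changes of 1 on the log2 scale, and for dividing against non-dividing precursors over 10154 genes it recovered 14% and 74%. Sequences were read from the GENCODE M21 transcripts, with coding bases located by the M21 annotation of GRCm38 (mm10). Counting intervals and floors cover counting error only. Some coding sequence is not reported here.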

Additional observations from a re-analysis of the deposited data

Results flagged for a closer look

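The difference between dividing and non-dividing cells was not the same in every lineage, by a limma interaction contrast that was added after the values were seen. Between neuroblasts and oligodendrocyte precursors it differed by -1.77 ± 0.14 (SE) for Stmn1, -1.36 ± 0.11 for Tubb5, -0.72 ± 0.12 for Tuba1b and -0.50 ± 0.10 for Tuba1a on the log2 scale. Stmn1 and Tubb5 kept their calls in each of 11 alternatives, with adjusted p of at most 0.000134 and 0.000527. Tuba1b lost its call without library 1 or 2 (adjusted p = 0.0521 and 0.351), and Tuba1a without any 1 library (adjusted p from 0.135 to 0.197). Between microglia and precursors it differed by -0.87 ± 0.12 for Tuba1b, which was not called without library 2 (adjusted p = 0.0545), and by -0.48 ± 0.11 for Tubb5, which was not called without library 1 or 2 (adjusted p = 0.305 and 0.569). Both contrasts share the precursor values. The classes counted as non-dividing still held cells with Mki67, in unequal shares, and their part in the contrasts was not tested.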

How the results depend on the processing

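Of 1470 member values recomputed under an alternative, 1367 kept their direction and side of the threshold, 61 lost the threshold, 39 gained it and 3 changed sign. The 3 were with centred log values: Tubb2b (0.23) and Tubb5 (0.18) in oligodendrocytes against precursors and Tubb4a in Cajal-Retzius cells against neuroblasts (-0.50). All calls held under every alternative for neuroblasts and for microglia against astrocytes (9 and 6 members), against 1 of 5 between the neuroblast classes and 3 of 7 in dividing neuroblasts.

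Counts of all genes called moved by over 1.5 times as follows, and the cause was not tested. Between the neuroblast classes 848 became 471 with only the 2 classes in the fit, 1874 with dividing cells left in their class and 1956 with at least 20 cells. With at least 20 cells dividing microglia went from 902 to 1507 and dividing neuroblasts from 1571 to 2455. With only the 2 classes dividing precursors went from 1436 to 3382, precursors against astrocytes from 4592 to 7459 and oligodendrocytes from 6446 to 3585. The interaction of microglia went from 122 to 17 with a pseudocount of 1 CPM, 290 without the filter and 295 with at least 20 cells, and that of neuroblasts from 47 to 23, 146 and 205. Members called in dividing neuroblasts went from 7 to 3 with a pseudocount of 1 CPM. In the interaction of microglia members went from 2 to 1 with that pseudocount or centred values, and to 4 with pairs at 2 counts or at least 20 cells.

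Leaving out 1 library gave 265 to 693 genes and 1 to 5 members between the neuroblast classes, 460 to 727 genes in dividing microglia, 881 to 1125 genes and 4 to 6 members in dividing neuroblasts, and 855 to 1213 genes in dividing precursors. It gave 7 to 63 genes and 0 to 4 members in the interaction of microglia and 6 to 34 genes and 2 to 4 members in that of neuroblasts, with each lowest count of genes without library 2. Centring moved the share of higher calls from 35.6% to 63.8% (neuroblasts against astrocytes), 74.3% to 37.9% (between neuroblast classes), 61.0% to 33.6% (Cajal-Retzius cells), 65.2% to 55.0% (precursors), 22.0% to 55.0% (oligodendrocytes), 30.2% to 57.4% (microglia), 40.4% to 51.4% (endothelial cells) and, for dividing cells, 67.4% to 30.4% (neuroblasts), 66.5% to 33.7% (precursors) and 75.3% to 37.0% (microglia). With no replicate block Stmn1 in dividing neuroblasts (adjusted p = 0.0585) and Tuba1a in the interaction of neuroblasts (adjusted p = 0.0636) were not called and Stmn4 in endothelial cells was (adjusted p = 0.0436), as in 6 other alternatives; the block changed no other call of a member. Thinning moved 50 of 90 shares of cells above 0 by more than 1 SD. Leaving out a library cannot move a mean of 3 libraries past their own SD, so that check decides nothing about the shares. At least 20 cells left no Cajal-Retzius or oligodendrocyte comparison, and oligodendrocytes with at least 10 cells could not be run.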
